A study of Mus musculus with 23 samples.

Results

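The genes described here are 36 transcription factors known from the mesenchyme around the eye and in the face. The list holds paired, LIM, Dlx, Barx and Meox homeobox factors, Pax factors, AP-2, odd-skipped and Zic factors, basic helix-loop-helix (bHLH), forkhead, T-box and runt factors. They were given as a list of gene names and found through the RefSeq accession of each probe: 36 of 36 were among the 20887 genes named on the array. A probe above background in at least 1 group was found for 33 of 36, against 16324 genes in all. The study hybridised total RNA of mouse tissue (strain background B6/CL, per the labels) to 23 1-colour Agilent arrays. At embryonic day 16.5, mesenchyme and epithelium had been separated in 3 tissues, the lacrimal gland (written LG), the harderian gland of the orbit (written HG) and the eyelid with the ocular conjunctiva, and each of these 6 groups had 3 arrays. Whole glands at 7 weeks gave 2 arrays of adult LG and 3 arrays of adult HG. The labels name no mutation or treatment in any group, and they do not say whether the arrays of a group came from separate animals, so a p-value speaks only of the spread among arrays, which may be technical.

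The mesenchyme of the face and around the eye comes largely from the cranial neural crest, with head mesoderm as a second source. Many of its transcription factors are made in restricted territories, and combinations of homeobox, Pax, forkhead, T-box and Twist factors are used to map position in the facial processes, the branchial arches and the eyelids. The lacrimal gland buds from the conjunctival epithelium into periocular mesenchyme, which signals to the bud through Fgf10. The harderian gland is a lipid-secreting gland of the rodent orbit. Several factors of the list, among them the AP-2 factors, Pitx1 and Dlx3, are also known from surface ectoderm.

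Levels are log2 of the processed signal relative to the 75th percentile of the same array, so that 0 is the level of that percentile. A gene was compared between samples only with itself, because the signals of different probes are not on 1 scale. Per array, 42.4% to 64.6% of spots stood well above background. The 75th percentile of the signal was 155 and 213 on the adult LG arrays and 364 to 1006 on the other 21, so a signal near background sits at a higher log2 level in adult LG than elsewhere. The labelled compartments were checked against 17 mesenchyme and 17 epithelium marker genes. The mesenchyme markers, such as Col1a1 and Pdgfra, averaged 4.98 to 5.48 over the arrays of the 3 mesenchymes, against 0.76 to 2.37 over the epithelia, where 16 or 17 of the 17 were still above background. The epithelium markers, such as Epcam and Cdh1, averaged -2.45 to -1.47 in LG mesenchyme, -2.78 to -0.86 in HG mesenchyme and -0.077 to 1.11 in eyelid mesenchyme, against 3.01 to 3.91 in the epithelia. In HG epithelium the mesenchyme markers averaged 1.32, 2.15 and 2.37, so that replicate 1 lay lowest, and replicate 1 was also the lowest in eyelid epithelium (0.94, 1.44 and 1.71). How much RNA of the other compartment contributed to a level was not tested.

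**Figure D1:**
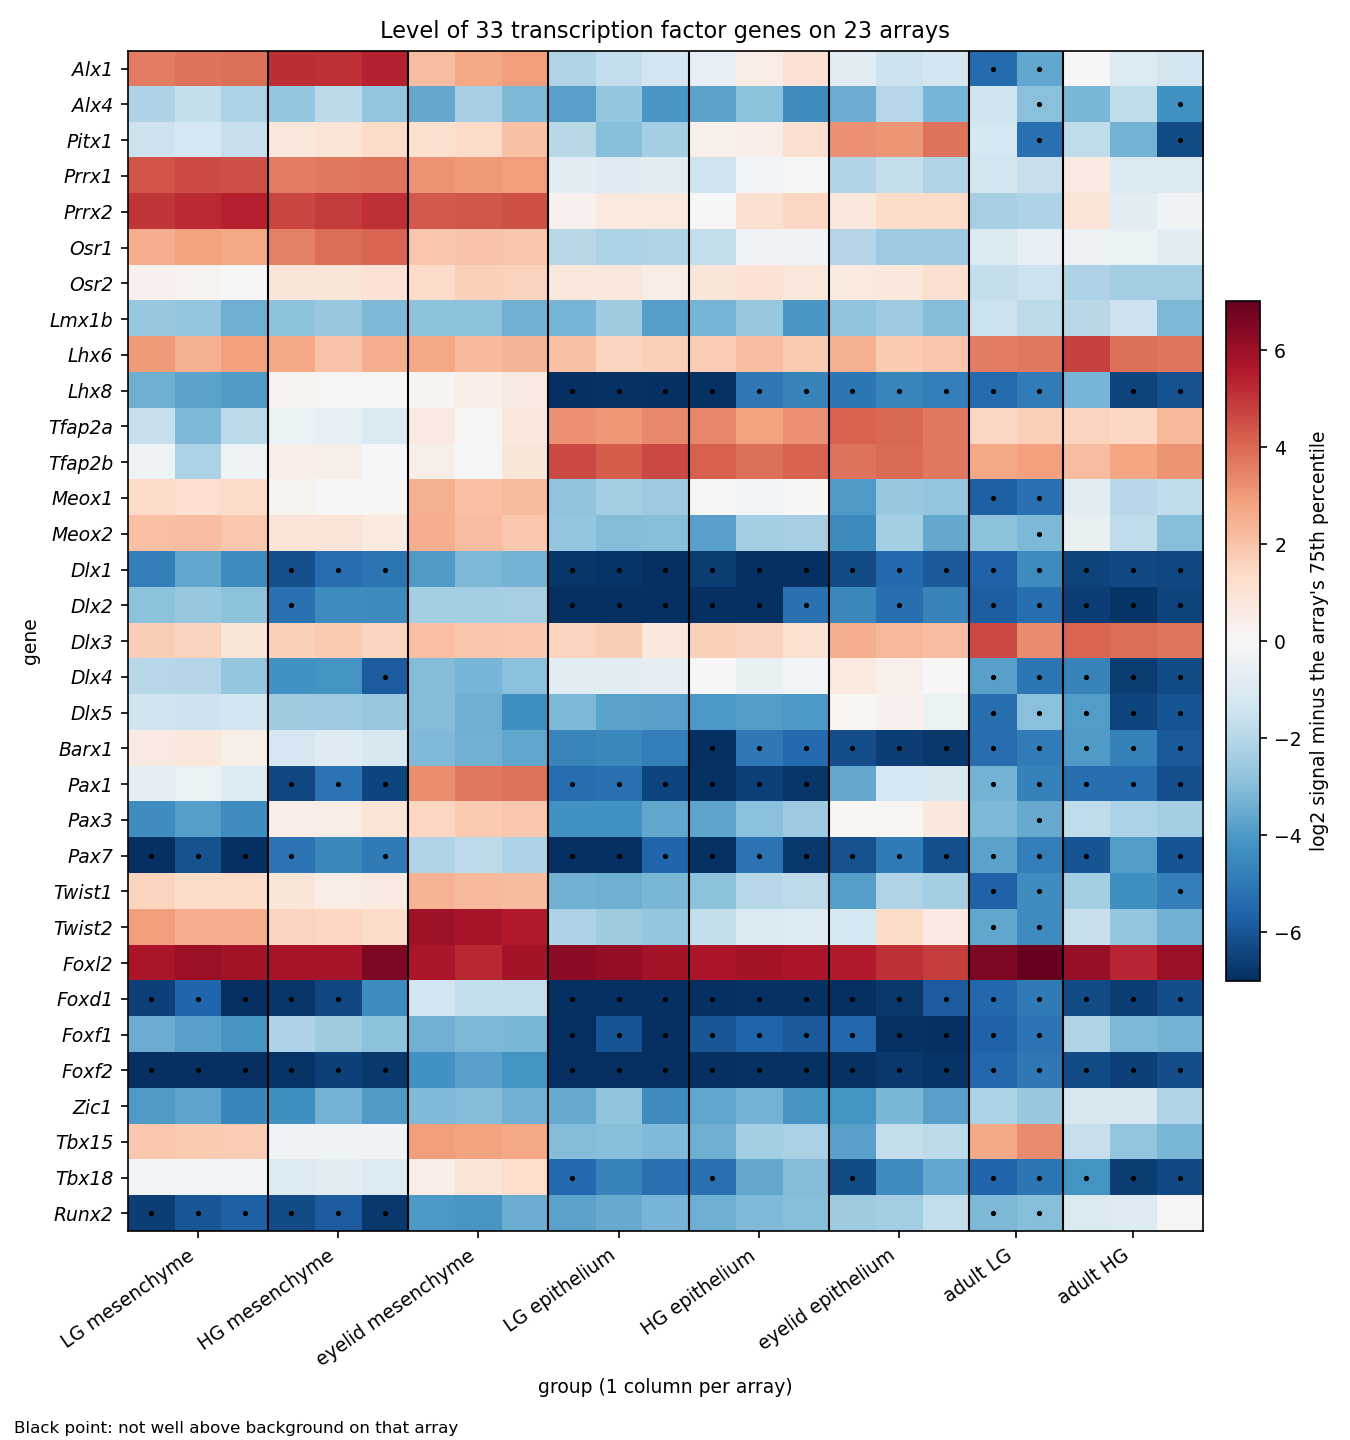
Level of the 33 measured factors (down the page, by family) on each of the 23 arrays (across, by group), as log2 signal relative to the array's 75th percentile. In the 3 mesenchymes Prrx1, Prrx2, Alx1 and Osr1 are bright and Pax1, Pax3, Lhx8 and Foxd1 differ by tissue, whereas Tfap2a and Tfap2b are brightest in the epithelia.

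The map of levels on all 23 arrays shows where the 33 factors were measured. All 33 were above background on each eyelid mesenchyme array, 29 on each LG mesenchyme array and 26 to 28 on the HG mesenchyme arrays. In the epithelia 23 to 26 were above background per array, in adult LG 12 and 16, and in adult HG 19 to 23. Dlx6, Pax9 and Tcf21 had no probe above background on every array of any group and were not tested. Dlx6, the neighbour of Dlx5 in the genome, was above background on a few arrays, and a Pax9 probe was above background on 1 adult LG array.

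Mesenchyme was compared with epithelium within each tissue at embryonic day 16.5. In LG 24 of the 33 factors changed (limma, Benjamini-Hochberg adjusted p under 0.05), 19 higher and 5 lower in mesenchyme, against 58.8% of all genes tested, of which 27% were higher and 31.8% lower. In HG 21 changed, 17 higher and 4 lower, against 58.1% of all genes (28.2% higher and 30% lower). In the eyelid 26 changed, 21 higher and 5 lower, against 51.9% of all genes (25.2% higher and 26.7% lower). The median log2 difference of mesenchyme minus epithelium over the 33 factors was 2.20 in LG, 1.38 in HG and 2.78 in the eyelid, whereas over all genes it was -0.092, -0.025 and -0.075. The arrays of mesenchyme and epithelium did not overlap for 26 of the 33 factors in LG, 23 in HG and 28 in the eyelid, against 68.7%, 70.1% and 62.2% of all genes. The share called was thus near that of all genes in HG and above it in the eyelid, and the calls ran mainly toward mesenchyme. Because the factors were chosen with earlier results of these data known, these shares and directions are not independent support. Pax7, Foxd1 and Foxf2 passed the filter only through eyelid mesenchyme. Under a stricter filter on dim probes, which left them out, 23 factors were called in the eyelid, 18 of them higher in mesenchyme. In such bulk samples a lower level can come from fewer cells of a type or from less RNA per cell, which cannot be told apart. By their calls over the 3 tissues, 14 factors were higher in mesenchyme in all 3, 4 were higher in epithelium in all 3, and 2 had opposite directions. Another 5 (Dlx3, Foxl2, Lmx1b, Pitx1 and Zic1) were called in none, and the other 8 were called in some tissues and in 1 direction. This grouping uses the brightest probe of each gene. The dimmer probes of Zic1, Lmx1b, Lhx6 and Runx2 gave other calls in at least 1 tissue, as described below.

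The paired homeobox factors Prrx1 and Prrx2, regulators of facial and limb skeletal mesenchyme, were higher in every mesenchyme. Prrx1 lay at 4.42, 4.54 and 4.50 in LG mesenchyme, against -0.81, -0.91 and -0.79 in LG epithelium. The 2 groups were far apart (log2 difference 5.32, SE 0.36, adjusted p = 6.5e-10), and the differences in HG (4.20) and in the eyelid (4.99) were of like size. Prrx2 differed by 4.67, 4.05 and 3.24 in LG, HG and eyelid. Alx1, a paired factor required for the frontonasal face and the eye region, was higher in mesenchyme by 5.48 in LG, 4.91 in HG and 3.79 in the eyelid, with adjusted p of 6.77e-07 at most. Its relative Alx4 was higher in LG alone by the test (log2 difference 1.52, SE 0.59, adjusted p = 0.0346), with log2 differences of 1.21 in HG and -0.11 in the eyelid that missed it. The Alx4 call was lost when any array of LG mesenchyme, or LG epithelium replicate 1 or 3, was left out, with adjusted p of 0.0541 to 0.126. Whether Alx4 differed between the tissues in this way was tested by an F test of compartment by tissue, and it did not pass (F = 2.14, adjusted p = 0.24).

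Osr1, an odd-skipped zinc finger factor of early mesenchyme, was higher in each mesenchyme by 4.36 to 4.78 on the log2 scale. The bHLH factors Twist1 and Twist2, which act in mesenchymal progenitors, were higher in mesenchyme in the 3 tissues as well. Twist1 differed by 4.72 in LG, 2.89 in HG and 5.10 in the eyelid, and Twist2 by 5.12, 2.67 and 5.53. The T-box factors Tbx15 and Tbx18, which act in dermal and skeletal mesenchyme and in mesenchyme of several organs, followed with 4.89, 2.43 and 5.24 for Tbx15 and 4.91, 3.05 and 5.63 for Tbx18. For these 4 factors the value was the smallest in HG. Twist2, Tbx15 and Tbx18 were also at their lowest in HG among the mesenchymes, with the levels given below. The mesenchyme markers in the epithelium were on average highest in HG, and their part in these differences was not tested. The F test of compartment by tissue called Twist1 (F = 5.43, adjusted p = 0.0366), Twist2 and Tbx15 but not Tbx18 (adjusted p = 0.0643). The Twist1 call of that F test was lost without 1 array in 11 of 18 cases, with adjusted p up to 0.0977. Meox2, a homeobox factor of the mesoderm, was higher in mesenchyme by 3.68 to 5.66.

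Meox1, the other Meox factor, gave the largest F of compartment by tissue among the 33 (F = 77.8, adjusted p = 8.18e-08). Its levels were 1.32, 1.20 and 1.35 in LG mesenchyme, against -2.82, -2.43 and -2.53 in LG epithelium. In HG they were 0.22, -0.026 and 0.072 in mesenchyme, against 0.094, -0.21 and 0.019 in epithelium. In the eyelid they were 2.49, 2.08 and 2.23 in mesenchyme, against -3.94, -2.64 and -2.71 in epithelium. Meox1 was therefore well apart between the compartments of LG (3.88) and eyelid (5.36), whereas the HG compartments overlapped (log2 difference 0.12, SE 0.31, adjusted p = 0.767). The mesenchyme markers averaged 1.32, 2.15 and 2.37 over the 3 HG epithelium arrays, and their part in the Meox1 levels was not tested.

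Of the LIM homeobox factors, Lhx8, which acts in tooth, palate and forebrain development, was below background on all 9 epithelium arrays. It was at least 3.1-fold higher in LG mesenchyme, at least 31.6-fold higher in HG mesenchyme and at least 37.8-fold higher in eyelid mesenchyme than in the epithelium of the same tissue, with adjusted p of 6.96e-05 at most. Such a bound takes the brighter group's mean over the dimmest signals still above background, or over the dim probe's own signal where that is higher. Foxf1, a forkhead factor of mesenchyme under hedgehog control, was likewise below background on every epithelium array and at least 2.91-fold, 5.38-fold and 3.01-fold higher in LG, HG and eyelid mesenchyme. Barx1, a homeobox factor of stomach, tooth and jaw mesenchyme, was higher by log2 difference 5.25, SE 0.42, adjusted p = 6.22e-09 in LG, and by at least 14.7-fold in HG and 2.79-fold in the eyelid, where the epithelium was below background. Lmx1b, needed in periocular mesenchyme for the front of the eye, was called between the compartments of no tissue by its brighter probe, with array levels of -4.07 to -2.47 over the 6 embryonic groups. Its dimmer probe was called lower in mesenchyme in the eyelid (-0.82, adjusted p = 0.00977).

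The Dlx factors, which pattern the branchial arches, did not move as a family. Dlx1 and Dlx2, which are neighbours in the genome, were higher in mesenchyme in the 3 tissues. Dlx2 was at -2.87, -2.67 and -2.85 in LG mesenchyme, against -7.64, -7.39 and -7.93 in LG epithelium, where no array was above background, so that it was at least 5.8-fold higher (adjusted p = 7.51e-09). In HG Dlx2 had -5.21, -4.38 and -4.47 in mesenchyme, against -7.37, -7.24 and -5.21 in epithelium, and in the eyelid -2.39, -2.37 and -2.33 in mesenchyme, against -4.51, -5.26 and -4.68 in epithelium. The HG groups overlapped at their lowest mesenchyme array, where Dlx2 was at least 1.19-fold higher in mesenchyme (adjusted p = 0.000428), and the eyelid groups did not overlap (log2 difference 2.45, SE 0.40, adjusted p = 4.27e-05). Dlx1 was at least 2.06-fold higher in LG mesenchyme and 2.56-fold higher in eyelid mesenchyme, whereas in HG it was called but above background in neither compartment, so no fold is given.

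Dlx4, the genomic neighbour of Dlx3, was higher in epithelium in all 3 tissues. It had -2.02, -2.06 and -2.78 in LG mesenchyme, against -0.71, -0.78 and -0.69 in LG epithelium. In HG it had -4.24, -4.19 and -5.81 in mesenchyme, against 0.03, -0.53 and -0.19 in epithelium, and in the eyelid -3.02, -3.25 and -2.93 in mesenchyme, against 0.66, 0.37 and -0.027 in epithelium. No mesenchyme array reached an epithelium array of its tissue, and the log2 differences were -1.56 in LG, -4.51 in HG and -3.40 in the eyelid (adjusted p = 0.00737, 1.54e-07 and 5.6e-06). Dlx3, a factor of epidermis, hair and teeth, was called in no tissue, with array levels of 0.73 to 2.52 over the embryonic groups.

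Dlx5, a factor of arch skeleton and of bone, ran in opposite directions. Its levels were -1.40, -1.43 and -1.27 in LG mesenchyme, against -3.12, -3.77 and -3.80 in LG epithelium, and -2.49, -2.54 and -2.63 in HG mesenchyme, against -3.999, -3.90 and -4.01 in HG epithelium. In the eyelid they were -3.01, -3.43 and -4.31 in mesenchyme, against 0.12, 0.31 and -0.48 in epithelium. Dlx5 was thus higher in mesenchyme in LG (log2 difference 2.20, SE 0.56, adjusted p = 0.00235) and in HG (log2 difference 1.41, SE 0.56, adjusted p = 0.0365), and higher in epithelium in the eyelid (log2 difference -3.57, SE 0.56, adjusted p = 2.65e-05). The HG call was lost when any 1 of the 6 HG arrays was left out, with adjusted p of 0.0644 to 0.0782. The F test of compartment by tissue gave 31.7 (adjusted p = 1.8e-05). Osr2, the other odd-skipped factor, known from palate, tooth and eyelid development, also had opposite directions in LG and eyelid. Its contrast was smaller and ran the other way round from that of Dlx5. It had 0.28, 0.23 and -0.0076 in LG mesenchyme, against 0.82, 0.81 and 0.51 in LG epithelium (log2 difference -0.54, SE 0.15, adjusted p = 0.0037), a call lost with each array centred on its median (adjusted p = 0.052). The HG groups overlapped, with 0.84, 0.86 and 0.998 in mesenchyme, against 0.85, 0.99 and 0.81 in epithelium. In the eyelid Osr2 was higher in mesenchyme, with 1.36, 1.69 and 1.63, against 0.70, 0.73 and 1.14 in epithelium (log2 difference 0.70, SE 0.15, adjusted p = 0.000521).

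The AP-2 factors Tfap2a and Tfap2b, which act in neural crest and in surface ectoderm, were the factors of the list most clearly higher in epithelium. Tfap2a had -1.59, -3.17 and -1.89 in LG mesenchyme, against 3.20, 3.01 and 3.34 in LG epithelium. It had -0.47, -0.57 and -1.08 in HG mesenchyme, against 3.41, 2.82 and 3.20 in HG epithelium, and 0.61, 0.088 and 0.76 in eyelid mesenchyme, against 4.11, 4.02 and 3.69 in eyelid epithelium. No groups of a tissue overlapped, with log2 differences of -5.40, -3.85 and -3.45 in LG, HG and eyelid (adjusted p = 6.51e-08 at most). Tfap2b had -0.37, -2.20 and -0.37 in LG mesenchyme, against 4.60, 4.23 and 4.62 in LG epithelium. In HG it had 0.45, 0.43 and -0.066 in mesenchyme, against 4.18, 3.83 and 4.15 in epithelium, and in the eyelid 0.43, -0.12 and 0.83 in mesenchyme, against 3.78, 3.94 and 3.68 in epithelium. Its log2 differences of -5.46, -3.78 and -3.42 were close to those of Tfap2a. LG mesenchyme replicate 2, the lowest array for both AP-2 factors, was also the lowest LG mesenchyme array for the 17 epithelium markers (-1.52, -2.45 and -1.47).

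The Pax factors and the forkhead factors Foxd1 and Foxf2 were split by tissue. Pax1 was at least 25.1-fold higher in mesenchyme in LG (adjusted p = 2.71e-07) and higher by 5.56 in the eyelid, and it was below background on all HG arrays. Pax3 was higher in mesenchyme in HG (log2 difference 3.71, SE 0.28, adjusted p = 3.37e-09) and in the eyelid (1.37, adjusted p = 0.00037), but not in LG (-0.16, adjusted p = 0.664), and the F test of compartment by tissue was passed (F = 49.998, adjusted p = 1.19e-06). Pax7, Foxd1 and Foxf2 were at least 6.97-fold, 9.38-fold and 1.69-fold higher in eyelid mesenchyme than in eyelid epithelium, which was below background for all 3. In LG these 3 factors were below background in both compartments.

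Runx2, the runt factor that drives bone formation, was below background in both gland mesenchymes. It had -6.60, -5.98 and -5.72 in LG mesenchyme, against -3.73, -3.51 and -3.26 in LG epithelium, and -6.25, -5.84 and -6.76 in HG mesenchyme, against -3.45, -3.10 and -2.96 in HG epithelium. In the eyelid Runx2 had -4.001, -4.07 and -3.50 in mesenchyme, against -2.46, -2.45 and -1.70 in epithelium. It was at least 3.42-fold lower in LG mesenchyme and 3.38-fold lower in HG mesenchyme than in epithelium, and in the eyelid the log2 difference was -1.65 (adjusted p = 0.000216). A dimmer Runx2 probe gave -1.16 in LG (adjusted p = 0.0875), so the LG call rests on the brighter probe, while it called HG (-2.16) and eyelid (-1.51) in the same direction.

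**Figure D2:**
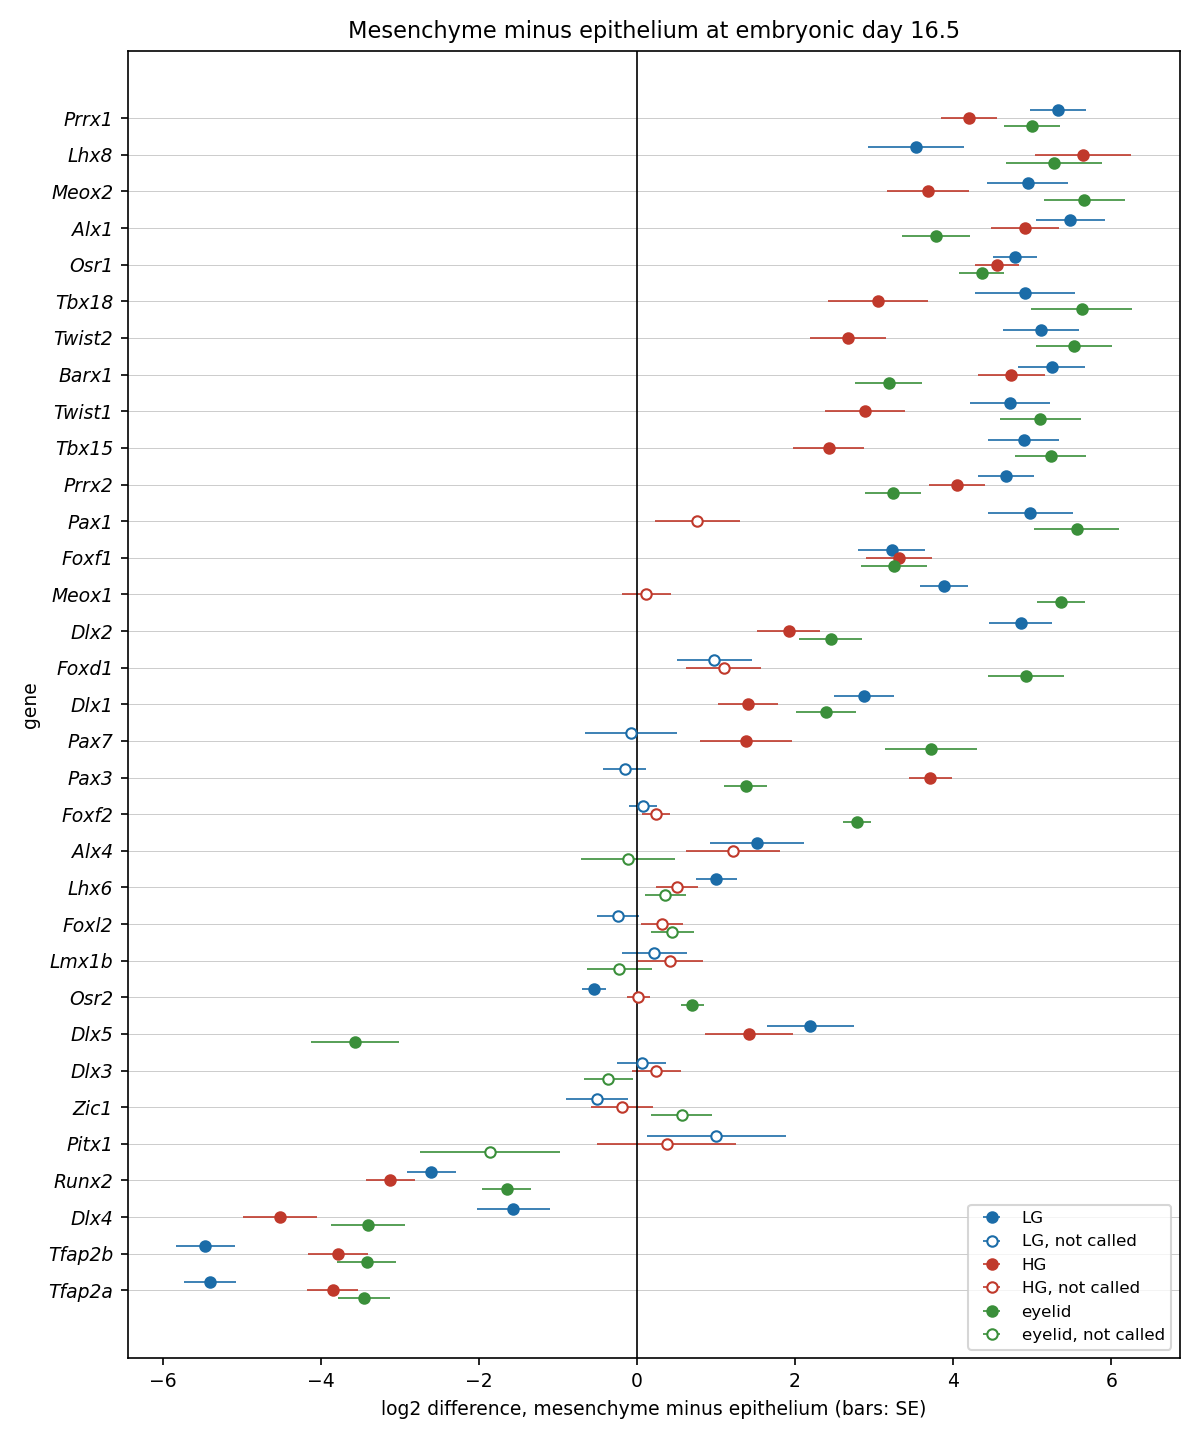
Log2 difference of mesenchyme minus epithelium for the 33 factors in LG, HG and eyelid, with filled points for an adjusted p under 0.05. Most points lie right of 0, Tfap2a, Tfap2b, Dlx4 and Runx2 lie left of it in all 3 tissues, and Dlx5 and Meox1 are split by tissue.

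The plot of compartment differences sets these patterns beside each other. The difference depended on the tissue for 17 of the 33 factors by the F test, against 42.4% of all genes, so the share among the factors was near the background. Lhx6, which acts in the first arch and the forebrain, was higher in LG mesenchyme (log2 difference 1.01, SE 0.26, adjusted p = 0.00303) and gave 0.51 and 0.36 in HG and eyelid, which were not called. Its dimmer probe, however, gave 4.02, 3.72 and 2.64 in LG, HG and eyelid, with adjusted p of 1.09e-06 at most over 21402 probes. Zic1, a zinc finger factor of the dorsal neural tube, was flat by its brighter probe (eyelid difference 0.57, adjusted p = 0.237) but differed by 5.75 in the eyelid by its dimmer probe (adjusted p = 0.000306).

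**Figure D3:**
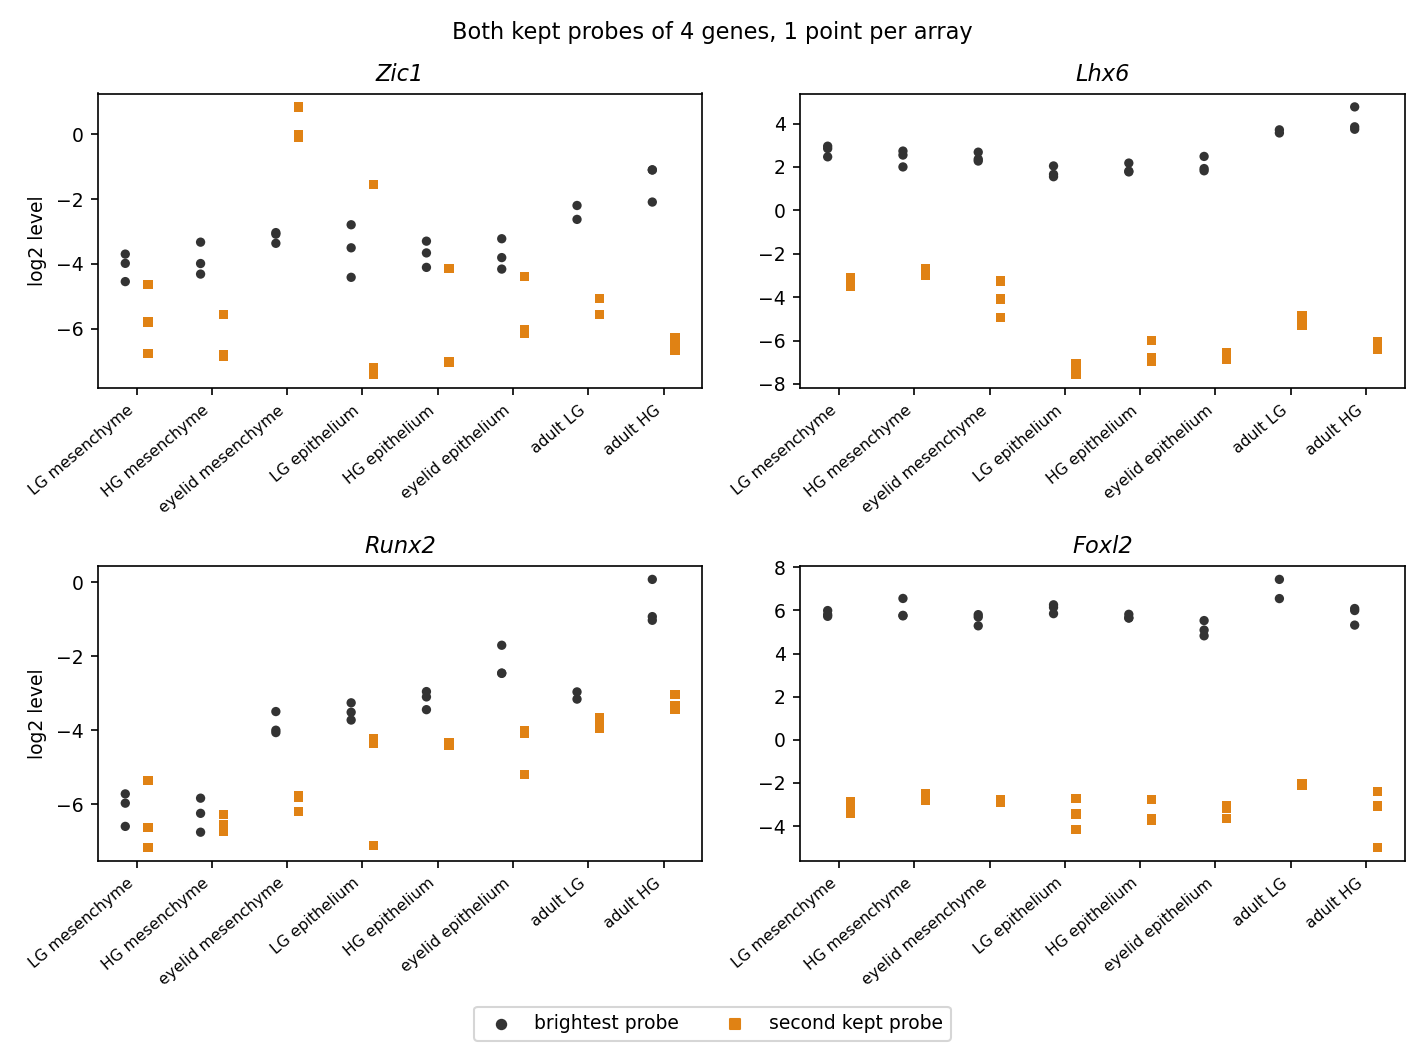
Level of both kept probes of Zic1, Lhx6, Foxl2 and Runx2 on each array (log2 signal relative to the array's 75th percentile), by group. For Zic1 the dimmer probe is high in eyelid mesenchyme only among the mesenchymes, and for Lhx6 the dimmer probe separates mesenchyme from epithelium more widely than the brighter one.

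The plot of both probes of 4 genes shows these disagreements array by array. The dimmer Zic1 probe had 0.85, -0.017 and -0.11 in eyelid mesenchyme, against -5.80, -4.63 and -6.76 in LG mesenchyme and -6.85, -5.57 and -6.81 in HG mesenchyme. It thus placed eyelid mesenchyme above both glands (-5.97 for LG minus eyelid and -6.65 for HG minus eyelid), whereas the brighter probe did not pass the test in either comparison. Foxl2, the forkhead factor whose human gene is mutated in a syndrome of narrowed eyelids, was at 4.82 to 6.55 on all embryonic arrays by its brighter probe, and neither of its probes passed the test between compartments. For Tfap2a, Pax3 and Prrx1 the dimmer probe kept the direction of each compartment call.

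The central comparison is that of the 3 mesenchymes. Among them 23 of the 33 factors differed (limma F test, adjusted p under 0.05), against 35.9% of all genes. Between LG and HG mesenchyme 17 differed, 7 higher and 10 lower in LG, against 14.7% of all genes (6.79% higher and 7.87% lower). Between LG and eyelid mesenchyme 17 differed, 4 higher and 13 lower in LG, against 32% of all genes (16.5% higher and 15.5% lower). Between HG and eyelid mesenchyme 18 differed, 3 higher and 15 lower in HG, against 22.9% of all genes (11.6% higher and 11.3% lower). The medians over the 33 factors were 0.18, -0.92 and -0.72, beside -0.023, 0.053 and 0.069 over all genes. Arrays did not overlap for 24, 28 and 26 of the 33 factors in these 3 comparisons, against 43.8%, 53.5% and 45.9% of all genes. More of the factors than of all genes were called in each of these comparisons, and most calls against the eyelid were toward the eyelid. The factors were chosen with earlier results of these data known, so a share above that of all genes is not independent support. Pax7, Foxd1 and Foxf2 passed the filter only through eyelid mesenchyme, so they could enter only as factors bright there. Under a stricter filter on dim probes, which left them out, the F test called 20. The calls toward the eyelid were then 10 against LG and 12 against HG. The comparisons share groups and are not independent of each other. With each array centred on its median instead, the count between LG and HG mesenchyme fell to 11, with 5 higher and 6 lower in LG, and it was also 11 without HG mesenchyme replicate 2.

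Several of the factors with the largest F values were at their highest in eyelid mesenchyme, among them Pax1, Foxd1, Foxf2 and Twist2. For these 4 the 250 bases before the annotated gene start are printed, since all 4 were at their highest in that tissue. They come from RefSeq's promoter windows on build GRCm38.p6, at chr2:147364744-147364993, chr13:98353995-98354244, chr13:31625566-31625815 and chr1:91801211-91801460, all on the plus strand. Capitals mark a match to 1 of the 5 motifs searched on both strands.
Pax1: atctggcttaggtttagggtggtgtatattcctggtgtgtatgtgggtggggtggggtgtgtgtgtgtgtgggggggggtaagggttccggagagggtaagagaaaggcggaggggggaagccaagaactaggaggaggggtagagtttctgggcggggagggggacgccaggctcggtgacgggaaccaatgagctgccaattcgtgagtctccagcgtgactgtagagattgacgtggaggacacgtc
Foxd1: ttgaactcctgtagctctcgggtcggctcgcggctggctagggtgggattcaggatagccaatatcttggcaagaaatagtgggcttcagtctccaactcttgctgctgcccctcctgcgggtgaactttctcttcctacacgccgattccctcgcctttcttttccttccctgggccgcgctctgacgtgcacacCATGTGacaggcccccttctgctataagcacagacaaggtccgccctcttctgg
Foxf2: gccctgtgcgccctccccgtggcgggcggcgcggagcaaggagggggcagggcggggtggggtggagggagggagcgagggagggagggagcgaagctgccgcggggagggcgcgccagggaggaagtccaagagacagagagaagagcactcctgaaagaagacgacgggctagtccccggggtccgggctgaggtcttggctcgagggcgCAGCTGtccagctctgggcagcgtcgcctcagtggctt
Twist2: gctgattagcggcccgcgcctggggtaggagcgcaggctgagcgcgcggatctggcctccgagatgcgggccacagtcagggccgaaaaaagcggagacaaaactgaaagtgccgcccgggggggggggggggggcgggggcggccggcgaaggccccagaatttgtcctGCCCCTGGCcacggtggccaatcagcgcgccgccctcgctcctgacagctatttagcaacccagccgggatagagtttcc
The motifs were the homeodomain core TAATTA, the E-box CANNTG of bHLH factors, the AP-2 motif GCCNNNGGC, the forkhead core TGTTTAC and the core promoter motif TATAAA. Foxd1 holds an E-box (CATGTG) whose first base is 54 bases before the start, Foxf2 an E-box (CAGCTG) at 38 bases before it, and Twist2 an AP-2 motif (GCCCCTGGC) at 80 bases before it, whereas Pax1 holds none of the 5. Windows were found for 23 of the 36 factors (26 windows), with a median GC content of 61%, against 52.4% over all 32851 windows, and a median of 13.5 CpG, against 6. The E-box was in 11 of the 26 windows, against 66.2% of all windows. TAATTA was in 2, against 4.84%, GCCNNNGGC in 4, against 13.7%, TATAAA in 2, against 12.4%, and TGTTTAC in 0, against 3.17%. A match describes the letters and is not a bound site.

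Pax1, a paired box factor of the sclerotome and the shoulder girdle, set the 3 mesenchymes apart from each other. Its levels were -0.64, -0.46 and -0.94 in LG mesenchyme, -6.36, -5.17 and -6.45 in HG mesenchyme and 3.27, 3.70 and 3.80 in eyelid mesenchyme. No array of 1 tissue overlapped with another, and the HG arrays were all below background. Pax1 was at least 360.0-fold lower in HG than in eyelid mesenchyme (adjusted p = 6.33e-10) and at least 18.6-fold higher in LG than in HG mesenchyme (adjusted p = 1.47e-06), and LG lay below eyelid by a log2 difference -4.27, SE 0.54, adjusted p = 7.37e-06. In eyelid epithelium Pax1 was also above background (-3.57, -1.24 and -1.11), in which replicate 1 was the lowest.

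Foxd1 and Foxf2 were measured well above background in eyelid mesenchyme alone among the 8 groups, apart from 1 array. Foxd1, a forkhead factor of the retina and of stroma, had -6.54, -5.55 and -7.08 in LG mesenchyme, -6.83, -6.38 and -4.36 in HG mesenchyme and -1.32, -1.73 and -1.74 in eyelid mesenchyme, and HG replicate 3 was the exception above background. It was at least 12.7-fold lower in LG than in eyelid mesenchyme (adjusted p = 4.28e-07), and the HG minus eyelid difference was -4.26 (adjusted p = 2.46e-06). Foxf2, a forkhead factor of palate and vessel mesenchyme, had -7.20, -7.60 and -7.09 in LG mesenchyme, -6.89, -6.53 and -6.75 in HG mesenchyme and -4.23, -3.80 and -4.19 in eyelid mesenchyme. It was at least 2.3-fold lower in LG and 1.8-fold lower in HG than in eyelid mesenchyme (adjusted p = 3.5e-10 and 5.38e-09). Foxd1 and Foxf2 passed the filter only through eyelid mesenchyme, so they could enter only as factors bright there. Their p-values against the eyelid are therefore not independent support. The Foxf2 F of compartment by tissue also fell under normexp background correction, as given below. A call between LG and HG mesenchyme for Foxf2 compares levels that were both below background.

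Twist2, known from dermal mesenchyme and, in people, from a disorder of absent eyelids, had 2.92, 2.55 and 2.53 in LG mesenchyme, 1.56, 1.48 and 1.34 in HG mesenchyme and 5.92, 5.75 and 5.56 in eyelid mesenchyme. Eyelid mesenchyme was clearly the highest, by log2 difference -3.08, SE 0.48, adjusted p = 7.48e-05 for LG minus eyelid and -4.28 for HG minus eyelid (adjusted p = 2.68e-06). The gland mesenchymes did not overlap, but their difference of 1.21 missed the threshold (adjusted p = 0.111). Twist1 differed between HG and eyelid mesenchyme (log2 difference -1.65, SE 0.51, adjusted p = 0.0247), a call lost without 1 array in 5 of 6 cases (adjusted p of 0.0533 to 0.0718). Its F among the mesenchymes of 5.3 (adjusted p = 0.0452) was lost without any 1 of the 9 mesenchyme arrays (adjusted p of 0.0576 to 0.115), and with the replicate number as a block it was 4.78 (adjusted p = 0.0548).

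Pax7, a factor of neural crest and of muscle stem cells, had -6.996, -6.07 and -6.96 in LG mesenchyme, -5.19, -4.54 and -4.95 in HG mesenchyme and -2.09, -1.82 and -2.17 in eyelid mesenchyme. All eyelid arrays lay above all gland arrays, of which only HG replicate 2 was above background. Pax7 was at least 9.5-fold lower in LG than in eyelid mesenchyme (adjusted p = 6.62e-06), and the HG minus eyelid difference was -2.87 (adjusted p = 0.00123). Pax7, too, passed the filter only through eyelid mesenchyme, so it could enter only as a factor bright there. Markers of skeletal muscle moved with it. The 15 muscle markers averaged -4.74 to -4.60 in LG mesenchyme with 7 to 8 above background, -3.38 to -1.96 in HG mesenchyme with 9 to 13, and 1.19 to 2.08 in eyelid mesenchyme with all 15, and their part in the result was not tested. The Pax7 call between LG and HG mesenchyme was lost without 1 array in 5 of 6 cases (adjusted p of 0.0779 to 0.146), as was the HG call between compartments (adjusted p of 0.0617 to 0.181).

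Pax3, a factor of neural crest, melanocyte precursors and muscle precursors, gave the largest F of all members (F = 261, adjusted p = 6.23e-11). It had -4.34, -3.86 and -4.35 in LG mesenchyme, 0.47, 0.54 and 0.96 in HG mesenchyme and 1.48, 1.81 and 1.88 in eyelid mesenchyme. LG mesenchyme was far below the others, by log2 difference -4.84, SE 0.28, adjusted p = 1.58e-09 for LG minus HG and log2 difference -5.91, SE 0.28, adjusted p = 5.19e-11 for LG minus eyelid. HG lay below eyelid mesenchyme by a smaller step (log2 difference -1.07, SE 0.28, adjusted p = 0.00798), whose call was lost with each array centred on its median (adjusted p = 0.0791). The dimmer Pax3 probe gave -6.18 and -7.38 for LG minus HG and LG minus eyelid, whereas its HG minus eyelid difference of -1.20 had an adjusted p of 0.054. Markers of melanocytes were likewise lowest in LG mesenchyme, but unlike Pax3 they were not lower in HG than in eyelid mesenchyme. The 9 melanocyte markers averaged -2.89 to -2.48 in LG mesenchyme with 6 to 8 above background, 1.33 to 1.56 in HG mesenchyme with all 9, and 0.87 to 1.09 in eyelid mesenchyme with all 9. Their part in the Pax3 result was not tested, nor was that of the muscle markers. Pax3 was also present in eyelid epithelium (0.16, 0.15 and 0.75), where the melanocyte markers averaged 1.20 to 1.79.

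**Figure D4:**
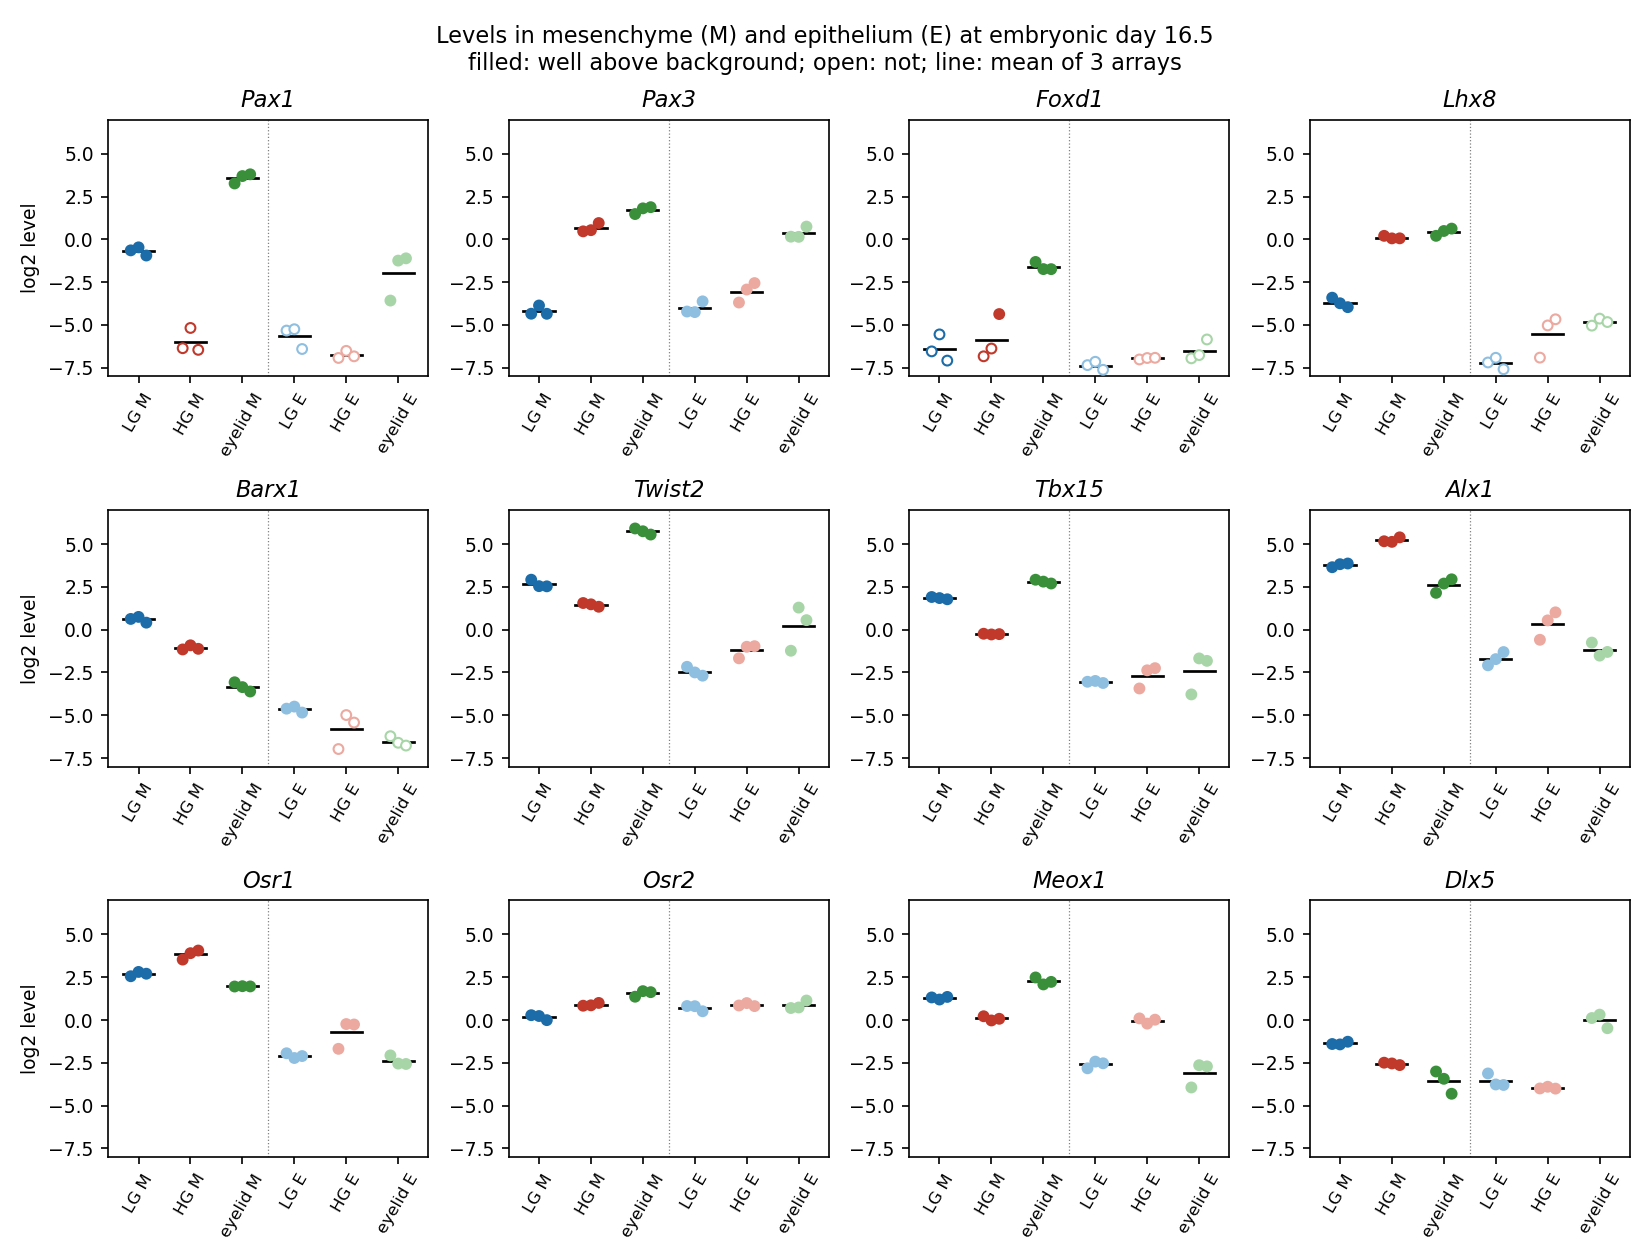
Level of 12 factors on each of the 18 embryonic arrays (log2 signal relative to the array's 75th percentile), with the 3 mesenchymes left of the 3 epithelia, a line at the mean of 3 arrays and open points for arrays not well above background. Among the mesenchymes, Pax1 separates all 3 tissues, Pax3 and Lhx8 are low in LG alone, and Barx1 falls in steps across LG, HG and eyelid.

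The plot of 12 factors over the embryonic arrays also shows Lhx8, which shared the order of Pax3. Lhx8 had -3.41, -3.73 and -3.96 in LG mesenchyme, 0.21, 0.06 and 0.063 in HG mesenchyme and 0.21, 0.49 and 0.63 in eyelid mesenchyme. LG mesenchyme was the lowest (log2 difference -3.81, SE 0.61, adjusted p = 0.000223 for LG minus HG and -4.14 for LG minus eyelid), and the HG minus eyelid difference of -0.33 (SE 0.61) did not pass the test (adjusted p = 0.776). Pitx1, a paired factor of hindlimb, jaw and oral ectoderm, had array levels of -1.64 to -1.25 in LG mesenchyme, 0.77 to 1.36 in HG mesenchyme and 1.15 to 2.05 in eyelid mesenchyme. Pitx1 was called for LG minus eyelid (log2 difference -2.95, SE 0.88, adjusted p = 0.0155) but not without eyelid replicate 3 (adjusted p = 0.0621), and it was not called for LG minus HG (-2.47, adjusted p = 0.0711).

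Barx1 ran the other way and fell in steps over the tissues. It had 0.63, 0.75 and 0.41 in LG mesenchyme, -1.15, -0.91 and -1.12 in HG mesenchyme and -3.07, -3.35 and -3.61 in eyelid mesenchyme. No 2 groups overlapped, and each step passed the test, with log2 difference 1.66, SE 0.42, adjusted p = 0.0116 for LG minus HG, 3.94 for LG minus eyelid (adjusted p = 1.17e-06) and 2.28 for HG minus eyelid (adjusted p = 0.000559). Dlx5 had the same order, with the values given above. It was higher in LG than in eyelid mesenchyme (log2 difference 2.22, SE 0.56, adjusted p = 0.00485), while LG minus HG (1.19) and HG minus eyelid (1.03) did not pass (adjusted p = 0.185 and 0.215). Its F among the mesenchymes lost its call without eyelid replicate 3 (adjusted p = 0.0608). Prrx1 was higher in LG than in eyelid mesenchyme (log2 difference 1.46, SE 0.36, adjusted p = 0.00408), with HG between them.

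Alx1 and Osr1 were highest in HG mesenchyme. Alx1 had 3.65, 3.83 and 3.87 in LG mesenchyme, 5.17, 5.13 and 5.40 in HG mesenchyme and 2.15, 2.70 and 2.94 in eyelid mesenchyme. The HG minus eyelid difference was 2.63 (SE 0.43, adjusted p = 0.000175). The calls of LG minus HG (-1.45) and LG minus eyelid (1.18) were lost when any 1 of their 6 arrays was left out (adjusted p of 0.0632 to 0.101 for LG minus HG and 0.0529 to 0.155 for LG minus eyelid). Osr1 had 2.56, 2.81 and 2.70 in LG mesenchyme, 3.53, 3.90 and 4.06 in HG mesenchyme and 1.96, 1.98 and 1.96 in eyelid mesenchyme. HG was above both others (log2 difference -1.14, SE 0.28, adjusted p = 0.00836 for LG minus HG and log2 difference 1.87, SE 0.28, adjusted p = 6.53e-05 for HG minus eyelid), and the LG minus eyelid difference of 0.73 missed the threshold (adjusted p = 0.0554). Its relative Osr2 had another order, with the array levels given above. It was lowest in LG and highest in eyelid mesenchyme, by -0.73 for LG minus HG, -1.39 for LG minus eyelid and -0.66 for HG minus eyelid (adjusted p = 0.00178, 8.66e-07 and 0.0025). With each array centred on its median only the LG minus eyelid step of Osr2 passed (adjusted p = 0.133 and 0.223 for the others).

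Several factors were lowest in HG mesenchyme. Tbx15 had 1.91, 1.85 and 1.78 in LG mesenchyme, -0.24, -0.28 and -0.26 in HG mesenchyme and 2.92, 2.81 and 2.70 in eyelid mesenchyme. HG lay below LG (log2 difference 2.10, SE 0.45, adjusted p = 0.00303 for LG minus HG) and below eyelid (-3.07, adjusted p = 5.26e-05), and LG lay below eyelid on every array, by -0.96, without passing the test (adjusted p = 0.114). Meox1, with the levels given above, had the same order, and its steps were 1.20, -0.98 and -2.18 for LG minus HG, LG minus eyelid and HG minus eyelid. The Meox1 call for LG minus eyelid (adjusted p = 0.0206) was lost without LG replicate 2 or eyelid replicate 1 (adjusted p of 0.0624 to 0.074), and with each array centred on its median that call and the LG minus HG call were lost (adjusted p = 0.125 and 0.0655). Dlx2 was higher in LG than in HG mesenchyme (log2 difference 1.89, SE 0.40, adjusted p = 0.00273) and lower in HG than in eyelid (-2.32, adjusted p = 0.000268). Dlx1 was at least 1.55-fold higher in LG than in HG mesenchyme, a call lost without 1 array in 4 of 6 cases (adjusted p of 0.0536 to 0.179), and at least 2.74-fold lower in HG than in eyelid (adjusted p = 0.000493). Dlx4 was higher in LG than in HG mesenchyme (log2 difference 2.46, SE 0.46, adjusted p = 0.00102) and lower in HG than in eyelid (log2 difference -1.68, SE 0.46, adjusted p = 0.0126), the second call being lost without HG replicate 3 (adjusted p = 0.0944).

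Tfap2a and Tfap2b, whose levels were far lower in mesenchyme than in epithelium, also differed among the mesenchymes. Tfap2a was lowest in LG and highest in eyelid mesenchyme (-1.51 for LG minus HG, -2.70 for LG minus eyelid and -1.19 for HG minus eyelid, adjusted p = 0.0122 at most). The HG minus eyelid call was lost without HG replicate 3 or eyelid replicate 3 (adjusted p of 0.0595 to 0.0701). The dimmer Tfap2a probe called LG minus eyelid (-1.83, adjusted p = 0.00332) but neither LG minus HG (-1.05, adjusted p = 0.13) nor HG minus eyelid (-0.79, adjusted p = 0.234). Tfap2b differed by -1.25 for LG minus HG and -1.36 for LG minus eyelid, and without LG replicate 2 these were -0.64 and -0.75 (adjusted p = 0.179 and 0.0576). The first of these calls was also lost without HG replicate 1 or 2, and the second without eyelid replicate 3. Without LG replicate 2 the F among the mesenchymes had an adjusted p of 0.1. The epithelium markers were likewise highest in eyelid mesenchyme, with the averages given above and 15 to 16 of the 17 above background per array in LG, 12 to 16 in HG and 16 to 17 in eyelid mesenchyme, and their part in the AP-2 result was not tested. Runx2 was below background in both gland mesenchymes and at least 2.67-fold lower in LG and 2.1-fold lower in HG than in eyelid mesenchyme. The dimmer Runx2 probe called neither (-0.45 for LG and -0.59 for HG). The 6 bone markers averaged -3.68 to -3.48 in LG mesenchyme, -3.84 to -3.23 in HG mesenchyme and -3.34 to -1.05 in eyelid mesenchyme, and their part was not tested.

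The other 10 factors passed no F test among the mesenchymes, and their F ranged from 0.0715 for Lmx1b to 4.64 for Foxf1 (adjusted p = 0.0631). Prrx2 had array levels of 5.02 to 5.42 in LG, 4.70 to 5.13 in HG and 4.28 to 4.44 in eyelid mesenchyme, and Meox2 had 1.88 to 2.17, 0.71 to 0.93 and 1.88 to 2.53. Tbx18 had -0.22 to -0.17 in LG, -0.97 to -0.74 in HG and 0.44 to 1.21 in eyelid mesenchyme, with a difference of -1.74 between HG and eyelid (SE 0.64, adjusted p = 0.057). Foxf1 was lower in LG than in HG mesenchyme in that pair alone (log2 difference -1.28, SE 0.42, adjusted p = 0.0494), a call lost without any 1 of the 6 arrays (adjusted p of 0.0595 to 0.172). Lhx6, one of the 10, was called for HG minus eyelid mesenchyme by its dimmer probe (1.24, adjusted p = 0.00743), whereas its brighter probe gave -0.011 (adjusted p = 0.985). Zic1, also one of the 10, was called lower in both gland mesenchymes than in eyelid mesenchyme by its dimmer probe (-5.97 for LG and -6.65 for HG).

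Among the 3 epithelia 17 of the 33 factors differed, against 48.1% of all genes, which is near the background. Of these 17, Lhx8, Dlx1 and Foxf2 were below background on all 9 epithelium arrays, so their calls compare levels not well above background. Pax3 led (F = 139, adjusted p = 6.92e-10), with the eyelid levels given above, against -4.21, -4.25 and -3.62 in LG epithelium and -3.69, -2.93 and -2.55 in HG epithelium. Meox1 followed (F = 57.6), being high in HG epithelium alone. Among the epithelia, Dlx5 (F = 30.6) and Pax1 (F = 43.1) were highest in the eyelid. Pax1 was there far below its level in eyelid mesenchyme. Its lowest eyelid epithelium array, replicate 1, was also the lowest for the mesenchyme markers, whose part was not tested. Pitx1 (F = 21.8, adjusted p = 9.36e-05) had -3.01 to -1.96 in LG epithelium, 0.34 to 1.12 in HG epithelium and 3.10 to 3.81 in eyelid epithelium, a higher level than in eyelid mesenchyme on every array, though that compartment difference of -1.86 was not called (adjusted p = 0.0873). The F calls of Dlx1, Dlx3, Foxl2 and Foxf2 among the epithelia were lost without 1 array in 1, 2, 4 and 8 of 9 cases, with adjusted p up to 0.238 for Foxf2.

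The whole adult glands were compared at 7 weeks. There 15 of the 33 factors differed between adult LG and adult HG, 8 higher and 7 lower in LG, against 55.7% of all genes (24.1% higher and 31.7% lower), a share of the factors below that of all genes. The split by direction depended on the processing. It was 1 higher and 10 lower with each array centred on its median, 4 and 11 with quantile normalization, and 15 and 5 with normexp background correction. The arrays of adult LG and adult HG did not overlap for 18 factors, against 57.7% of all genes. Of the 8 higher calls, 5 (Pax1, Dlx1, Dlx2, Dlx4 and Foxf2) were of genes above background in neither gland, where the adult LG scale lies higher. That leaves Tbx15, Foxl2 and Osr2 as factors measured higher in adult LG. The calls of Tbx15, Meox1, Alx1, Runx2 and Prrx2 held under every alternative run, and the other 10 of the 15 were lost under at least 1.

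**Figure D5:**
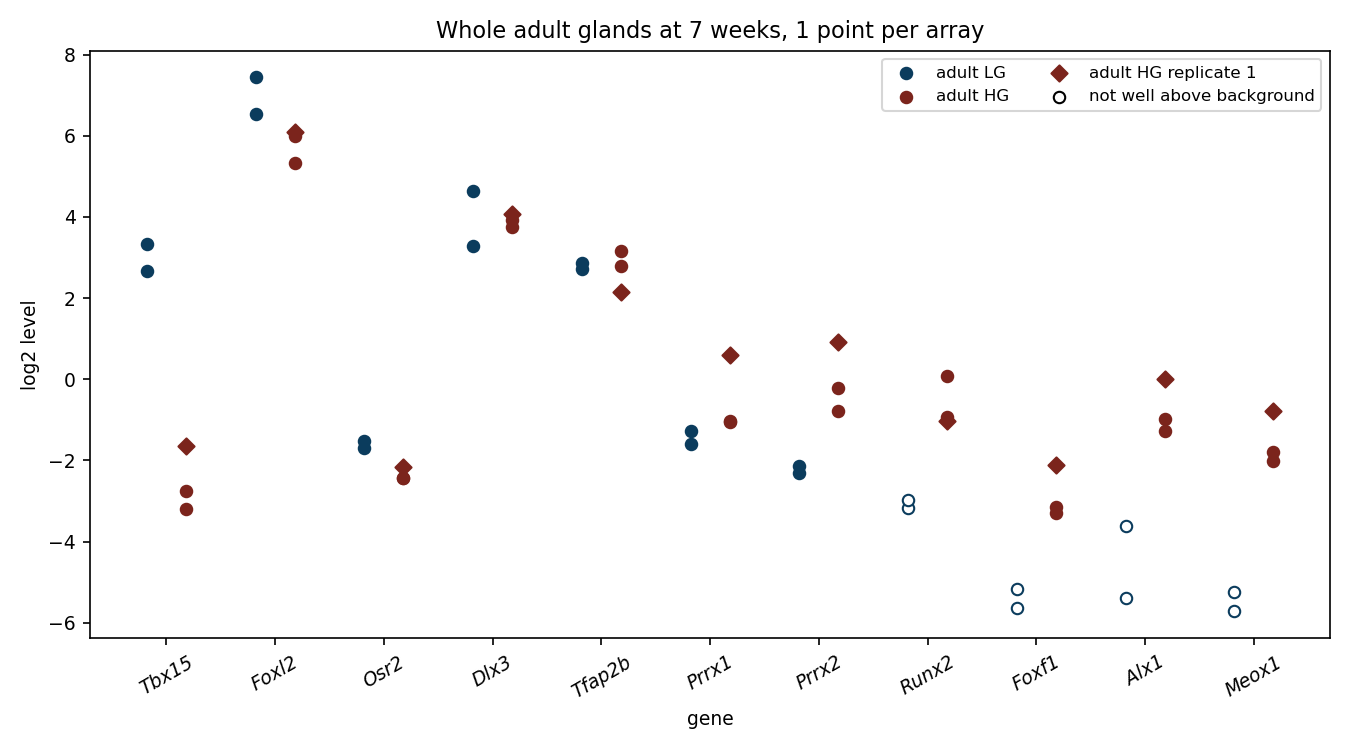
Level of the factors named in the adult comparison on the 2 adult LG and 3 adult HG arrays (log2 signal relative to the array's 75th percentile), with open points for arrays not well above background. Tbx15 lies at 2.66 and 3.33 in adult LG and at -1.64 or lower in adult HG, and Meox1, Alx1, Foxf1 and Runx2 are below background in adult LG only.

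The plot of adult levels shows Tbx15 at 2.66 and 3.33 in adult LG, against -1.64, -2.76 and -3.20 in adult HG. The groups were wide apart (log2 difference 5.53, SE 0.50, adjusted p = 3.58e-08), and the adult LG levels were near those of eyelid mesenchyme at embryonic day 16.5. No test was made between adult and embryonic groups, which differ in age and in being whole glands. Foxl2 had 6.55 and 7.44 in adult LG, against 6.09, 5.32 and 5.995 in adult HG (log2 difference 1.19, SE 0.30, adjusted p = 0.00252), and without adult LG replicate 2 the difference was 0.75 (adjusted p = 0.0832). Osr2 had -1.69 and -1.52 in adult LG, against -2.16, -2.43 and -2.43 in adult HG (log2 difference 0.73, SE 0.16, adjusted p = 0.000955), and centring each array on its median ended the calls of Foxl2 and Osr2 (adjusted p = 0.0934 and 0.25). All arrays of each pair of groups were apart for these 3 genes.

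Of the factors lower in adult LG, Meox1, Alx1, Foxf1, Runx2 and Twist2 were below background there. Meox1 had -0.78, -2.01 and -1.79 in adult HG and was at least 3.15-fold lower in adult LG (adjusted p = 1.87e-08). Alx1 was at least 5.42-fold lower, Runx2 at least 5.36-fold lower, Twist2 at least 1.52-fold lower and Foxf1 at least 1.26-fold lower, the last being the smallest of these bounds. The dimmer Runx2 probe gave a log2 difference of -0.54 (adjusted p = 0.491), and the Twist2 call was lost without adult HG replicate 1 (adjusted p = 0.132) or without adult LG replicate 2. Prrx2, with -2.31 and -2.14 in adult LG, against 0.92, -0.79 and -0.22 in adult HG, was lower by log2 difference -2.19, SE 0.40, adjusted p = 0.000134. Pax3 was called lower too (log2 difference -1.20, SE 0.31, adjusted p = 0.00293), whereas its dimmer probe gave 0.99 (adjusted p = 0.0891). Under a normexp background correction the Pax3 and Twist2 differences turned to 0.015 and 0.097, and that of Foxf1 came to -0.025. The dimmer probes of Lhx6 and Prrx1 were called in the adult glands (1.09 and -1.20, adjusted p = 0.0138 and 0.0336), and their brighter probes were not (-0.48 and -0.94). The mesenchyme markers were lower in adult LG as well, at 1.18 and 0.79, against 2.82, 2.29 and 1.86 in adult HG. In adult HG replicate 1 the muscle markers averaged -0.34, above replicates 2 and 3, and without that array Meox1, Alx1 and Prrx2 still differed by -3.58, -3.39 and -1.72. The part of either marker list was not tested.

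The wider setting of these factors is given by 2 further lists. Both were also chosen with earlier results of these data known, so shares above those of all genes are not independent support. The genes named are those with the largest differences in a list, except some that are not reported here. Of 57 other mesenchyme and arch factors 52 were measured, the exceptions being Hand1, Lhx9, Zic2, Zic4 and Tbx5. Mesenchyme differed from epithelium for 41 of them in LG (25 higher and 16 lower), 39 in HG (26 higher and 13 lower) and 44 in the eyelid (29 higher and 15 lower), which is 78.8%, 75% and 84.6% of the 52, against 58.8%, 58.1% and 51.9% of all genes. Their medians of 1.14, 0.86 and 1.84 were below those of the 33 factors. In LG, Tbx3 (5.68) and Gsc (5.33) were among those highest in mesenchyme, while Scx (-5.33), Foxc1 (-5.11) and Six2 (-4.78) were higher in epithelium. In HG, Gsc (5.24) and Ebf3 (4.76) stood at the mesenchyme end and Tfap2c (-4.93), Meis2 (-4.40) and Scx (-3.60) at the epithelium end. In the eyelid, Emx2 and Mkx were at least 24.9-fold and 16.2-fold higher in mesenchyme, and Foxc2 (-2.74), Foxc1 (-2.70) and Meis2 (-2.57) were higher in epithelium.

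Among the mesenchymes 37 of these 52 factors differed by the F test (71.2%, against 35.9% of all genes), with the same limit from the choice of the list. LG and HG mesenchyme differed for 20 (6 higher and 14 lower in LG), or 38.5%, against 14.7% of all genes, with Mkx, a tendon factor, at 3.20, Shox2 at 2.74 and Snai2 at 1.35, and Eya2, Prdm16 and Six2 at -2.64, -2.53 and -2.53. LG and eyelid mesenchyme differed for 31 (13 higher and 18 lower in LG), or 59.6%, against 32% of all genes. Nr2f1 (3.90), Gsc (2.88) and Nr2f2 (2.75) were higher in LG, whereas the tendon factor Scx (-5.75) and Hand2 (at least 8.19-fold) were lower. HG and eyelid mesenchyme differed for 29 (13 higher and 16 lower in HG), or 55.8%, against 22.9% of all genes, with Nr2f1, Foxp2 and Ebf3 higher (4.60, 2.60 and 2.59) and Lhx2 (-5.34) and Emx2 (-4.51) lower. In the adult glands 36 differed (15 higher and 21 lower in LG), or 69.2%, against 55.7% of all genes. Mkx (at least 39.8-fold) and Six2 (6.37) were higher in adult LG, and Tbx22 (at least 7.25-fold), Ebf2 (-3.89) and Tbx1 (at least 2.87-fold) were lower.

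The second list held 26 signals and receptors of the arches and face, all of them measured. Mesenchyme differed from epithelium for 18 in LG (11 higher and 7 lower), 16 in HG (10 higher and 6 lower) and 22 in the eyelid (12 higher and 10 lower). These are 69.2%, 61.5% and 84.6% of the 26, against 58.8%, 58.1% and 51.9% of all genes, so that the share in HG was near the background. Fgf10, the mesenchymal signal of gland budding, was higher in mesenchyme by 5.81 in LG and 6.74 in HG, and Aldh1a2, an enzyme of retinoic acid synthesis, by 4.75 and 4.76. Pdgfc, a ligand of Pdgfra, was lower in mesenchyme by -4.83 in LG, -4.01 in HG and -2.22 in the eyelid. Aldh1a3 (-4.15 in LG), Bmp7 (-4.32 in HG) and Shh (-2.95 in the eyelid) were lower in mesenchyme as well. In the eyelid Pdgfra (4.63) and the endothelin receptor Ednra (4.58) were higher in mesenchyme. Fgf10 was higher in both gland mesenchymes than in eyelid mesenchyme (3.29 for LG and 3.28 for HG), while the hedgehog receptor Ptch1 was lower in both (-3.09 and -2.99).

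Between the mesenchymes 8 of these 26 differed for LG minus HG (2 higher and 6 lower), 15 for LG minus eyelid (3 higher and 12 lower) and 15 for HG minus eyelid (5 higher and 10 lower). These are 30.8%, 57.7% and 57.7% of the 26, against 14.7%, 32% and 22.9% of all genes. Bmp2 (2.57) and Bmp7 (1.69) were higher in LG than in HG mesenchyme, and Bmp4 (-2.87) and Edn1 (-1.84) were lower. Aldh1a2 was higher (3.91) and Bmp4 lower (-4.82) in LG than in eyelid mesenchyme, and Rarb was higher (2.89) and Bmp7 lower (-2.69) in HG than in eyelid mesenchyme. In the adult glands 19 differed (7 higher and 12 lower in LG), or 73.1%, against 55.7% of all genes, among them Rxra (3.13), Smo (2.96), Wnt5a (-5.32) and Aldh1a1 (-3.17). Every value given for a gene of these 2 lists is a log2 difference or a bound, and each passed the test.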

How the data were processed

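The authors deposited 1 scanner file per array, whose intensity values on a linear scale (gProcessedSignal) had been background-subtracted and detrended by Agilent Feature Extraction, per the file headers. The headers give version 11.0.1.1 for the arrays of slide 1 and 11.5.1.1 for slides 2 and 3, while the submitters' processing notes name 11.5.1.1 alone. The deposited series matrix holds intensity as well, and it differed from the scanner values by an SD of at most 0.0425 on the log2 scale. No coordinates of the array files were used.

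From each array, 109 to 187 outlier spots of 59305 were left out, spots of a probe were averaged (134 values were missing), and the array's 75th percentile was subtracted on the log2 scale. Of 55681 probes, 27509 matched 20887 symbols through RefSeq accessions. A probe entered when, in 1 group or more, at least a 0.5 share of spots passed the flag for signal well above background on each array, and the brightest such probe stood for its gene. The 23 arrays entered 1 limma fit (lmFit and eBayes, limma 3.58.1, R 4.3.3) of 8 group means, with two-sided tests, Benjamini-Hochberg adjustment over 16324 genes and a threshold of 0.05. The number of arrays limits the precision. Promoter windows came from RefSeq (GRCm38.p6).

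The 36 factors and the gene lists were chosen with earlier results of these data known. Factors given array by array were up to 16 with the largest F among the mesenchymes and those higher in epithelium in at least 1 tissue, and from the other lists the genes with the largest differences in each direction were named, except some that are not reported here. For the embryonic groups, the replicate number equals the slide, and arrays with the same number deviated together (correlations of 0.192 to 0.508 over genes), so the numbers were taken to pair the samples, although pair and slide cannot be told apart. For the adult glands the correlations were 0.198 and -0.313, and they were not taken as pairs. The labels' methods state no block, so the fit has none, and a fit with the replicate block was run beside it. Other alternatives were median centring, quantile normalization, normexp background correction, other filters on dim probes, the mean over a gene's probes, the slide as a block, fits of embryonic or adult arrays alone, the deposited matrix and leaving out each array.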

Additional observations from a re-analysis of the deposited data

Results flagged for a closer look

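For 17 of the 33 factors the difference of mesenchyme minus epithelium depended on the tissue, by limma's F test of compartment by tissue over LG, HG and eyelid with an adjusted p under 0.05, against 42.4% of all genes. The largest F values were 77.8 for Meox1, which was level between the HG compartments, 72.1 for Foxf2, measured in eyelid mesenchyme alone, and 49.998 for Pax3, level between the LG compartments. Dlx5 gave 31.7 and Osr2 18.3, both with opposite directions in LG and eyelid. Pax1 gave 23.6, Foxd1 22.3 and Pax7 10.9, all with their widest difference in the eyelid. Dlx2 gave 15.4, with its widest difference by signal in LG. Its epithelium was below background in LG and HG, so the sizes of these differences are known only as bounds. Tbx15 gave 11.6, Twist2 10.4 and Twist1 5.43, with their smallest difference in HG. Dlx4 gave 10.4, Tfap2a 9.9 and Tfap2b 8.34, all higher in epithelium in each tissue. Barx1 gave 6.38 and Runx2 5.68. The Barx1 call was lost without eyelid mesenchyme replicate 3 or eyelid epithelium replicate 1 (adjusted p of 0.0638 to 0.0644), the Runx2 call without 1 array in 7 of 18 cases (adjusted p up to 0.095), and the Twist1 call in 11 of 18. With normexp background correction Foxf2, which is dim, gave an F of 1.66.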

How the results depend on the processing

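Of 195 calls on single factors over the 10 comparisons, 148 held under every alternative that could test them. The stricter filter on dim probes left 175 of the 195 to test, and all 175 held. Median centring kept 164, quantile normalization 177, normexp (chosen after seeing the data) 183, the fit without a filter 189, the mean over probes 192, and the deposited matrix 193. With the replicate block 194 held. Of the 195 calls, that block ended the call of Twist1 among the mesenchymes alone (F = 4.78, adjusted p = 0.0548). It also added calls, with 22 factors for the HG compartments (against 21) and 18 for LG minus eyelid mesenchyme (against 17). There were 24 among the mesenchymes (against 23) and 16 for the adult glands (against 15). The block moved no count by more than 1.5 times. Under normexp the adult differences of Pax3 and Twist2 reversed to 0.015 and 0.097. Factors called between LG and HG mesenchyme came to 11 with median centring and to 11 to 13 without 1 array, against 17. Over all genes, median centring called 1252 for LG minus HG mesenchyme (against 2393), 2922 for LG minus eyelid (against 5226), 2246 for HG minus eyelid (against 3746), 3365 among the mesenchymes (against 5861) and 4015 for compartment by tissue (against 6929). The cause was not tested. Embryonic arrays alone called 3802 genes for LG minus HG mesenchyme, and adult arrays alone 4881 for the adult glands (against 9100). Such a fit keeps the group means and changes only the estimate of the spread. Of the factors, embryonic arrays alone called 20 for LG minus HG mesenchyme (against 17), 19 for LG minus eyelid (against 17) and 21 for HG minus eyelid (against 18). Some factors that did not pass in the main fit thus passed there. Adult arrays alone called 11 (against 15). Without 1 array the counts of factors ran over 23 to 24 (LG compartments), 19 to 21 (HG), 26 (eyelid), 14 to 16 (LG minus eyelid mesenchyme), 15 to 18 (HG minus eyelid), 13 to 16 (adult), 20 to 22 (mesenchymes), 13 to 17 (epithelia) and 14 to 21 (compartment by tissue). Median centring moved the all-gene median to -0.22 for the LG compartments and -0.36 for the adult glands. Signals near background limit Pax1, Pax7, Foxd1, Foxf2, Dlx1, Dlx2, Lhx8 and Runx2 in the groups where they are dim, and adult LG most.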

Other observations

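Dlx6, Pax9 and Tcf21 entered no comparison. A Dlx6 probe was well above background on 2 LG mesenchyme arrays and on 1 array each of HG mesenchyme, eyelid mesenchyme and LG epithelium, with group means of -4.43, -5.19, -4.94 and -6.08 on the log2 scale. A Pax9 probe had -1.60 and -5.02 on the 2 adult LG arrays, of which the higher was above background. Among the marker lists, the 8 cartilage markers averaged 0.42 to 0.61 in LG epithelium, against -2.16 to -1.46 in LG mesenchyme, and 0.032 to 0.24 in HG epithelium, against -1.94 to -0.99 in HG mesenchyme. The endothelium markers averaged 1.48 to 2.45 over the mesenchyme arrays, the immune and blood markers 2.66 to 3.41 and the glia and neuron markers -1.48 to -0.68. The epidermal differentiation markers averaged -1.55 to -0.076 in eyelid mesenchyme, against 4.29 to 4.92 in eyelid epithelium.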
